A study of Homo sapiens with 24 samples.

Results

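The 10 genes described here encode regulators and effectors of the ATF4 pathway, namely ATF4, ATF3, ATF5, DDIT3, CEBPB, CEBPG, TRIB3, PPP1R15A, SESN2 and ASNS. They were taken by gene symbol from a table of 23354 genes, and all 10 symbols were found. The samples are RNA sequencing libraries of 2 established human acute myeloid leukemia cell lines, MV4-11 and KG-1a. Cells were left untreated (NT) or received 1 μM of 8-chloro-adenosine (8CA) or 1 μM of 8-amino-adenosine (8AA), adenosine analogs whose base carries chlorine in the former and an amino group in the latter, and were collected at 8 h or 24 h. The 2 lines, 3 treatments and 2 times gave 12 groups of 2 libraries, named A and B, or 24 libraries in all. The hours of the untreated libraries are given by the sample titles only. Each line is a single cell line with no genetic change made for the experiment, and both drugs of a line and time were compared with the same untreated libraries. Nothing in the labels says that libraries A and B came from separate cultures, so the p-values below measure the spread between libraries, which may be technical.

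ATF4 is a transcription factor of the integrated stress response. When a kinase phosphorylates the translation factor eIF2, most protein synthesis slows while the ATF4 mRNA is translated better, and ATF4 protein then binds its target genes as a dimer with C/EBP proteins. Its targets include enzymes of amino acid synthesis, transporters and tRNA synthetases, further transcription factors such as ATF3, ATF5 and DDIT3 (CHOP), and feedback genes such as TRIB3 and PPP1R15A (GADD34). Because control of ATF4 is largely translational, mRNA counts measure only a part of it.

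ATF4 binds with C/EBP proteins at a composite element (the C/EBP-ATF response element, CARE), whose core is written here as TGATGNAA. This core was searched on both strands of the RefSeq promoters of GRCh38.p14, from 250 bases before each transcript start, as a description, since the element is known from ASNS and other targets of ATF4 and finding it there is no independent result. All 10 genes were matched, with 20 promoter entries. The 27305 genes of the whole set had 35116 entries, fewer per gene, so the shares of genes below are not matched for entries searched. The core lay in the promoter of ASNS, CEBPG and ATF3, against 4.46% of 27305 genes, and the cAMP response element TGACGTCA in that of PPP1R15A, against 2.25% of genes. The E-box CACGTG lay in the ATF4 promoter, against 8.77% of genes. Each line gives 30 bases read 5′ to 3′ on the strand stated, with the searched letters in capitals, and offsets count from the transcript start.
ASNS, chr7:97872458-97872487, minus strand, offset -68: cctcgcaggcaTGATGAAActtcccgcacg
CEBPG, chr19:33374060-33374089, plus strand, offset -42: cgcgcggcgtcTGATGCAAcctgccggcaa
ATF3, chr1:212565205-212565234, plus strand, offset -191: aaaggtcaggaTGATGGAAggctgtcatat
PPP1R15A, chr19:48872352-48872381, plus strand, offset -58: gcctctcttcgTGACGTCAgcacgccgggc
AARS1, chr16:70289675-70289704, plus strand, offset -187: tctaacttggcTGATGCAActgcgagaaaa
GARS1, chr7:30594834-30594863, minus strand, offset -33: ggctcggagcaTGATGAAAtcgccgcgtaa
AARS1 and GARS1, which charge tRNAs with alanine and glycine, are shown because they are among the genes whose counts followed ASNS or passed the test in all 8 responses. The core lay in 10 of 22 matched amino acid targets of ATF4. A match of letters is a description of the sequence and no evidence of binding, and the windows say nothing about genes without a match, whose sites may lie elsewhere.

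Library totals ran from 18633963 to 24520078 counts. Libraries A and B of a group differed by 1.43 to 5.2 times the sampling noise (chi-square per degree of freedom) in 11 of the 12 groups. In the 24 h 8AA group of KG-1a they differed by 12.3 times. The responses of that group against untreated are therefore also given without each of its libraries. The lines matched their markers. MV4-11 held CD33 at 105 to 141 CPM (counts per library scaled to a common size by the TMM method) and CD34 at no more than 0.174 CPM, and KG-1a held CD34 at 325 to 629 CPM, CD33 at no more than 1.02 CPM and MEIS1 at 0 in 12 libraries. Of 6 markers of other cell types, EPCAM and KRT19 were at 0 in all 24 libraries, CD3E was at 0 in MV4-11, and the summed level of the 6 was 18.5 to 29.3 CPM in MV4-11 and 26.4 to 85.1 CPM in KG-1a. CD3E encodes a CD3 chain of the T cell receptor complex. In KG-1a at 24 h it was 36.3 and 36.6 CPM untreated, 31.0 and 32.2 CPM with 8CA and 78.3 and 67.0 CPM with 8AA. Its part in the results was not tested. CPM is a share of the library, so less RNA of a gene in each cell and fewer cells that hold it cannot be told apart.

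Across the 40 values for each drug (10 genes, 2 lines, 2 times), 22 rose and 1 fell with 8CA, whereas 2 rose and 21 fell with 8AA, by the quasi-likelihood test of edgeR at an adjusted p under 0.05 over all genes tested. Over all genes, 0.7% to 23.4% rose and 0.181% to 24.0% fell with 8CA in the 4 comparisons pooled here. With 8AA 15.3% to 26.6% fell, and at 24 h 13.9% rose in MV4-11 and 25.4% in KG-1a. The 40 values of a drug share libraries and so are not separate observations. ATF4 and TRIB3 rose in 3 of 4 comparisons with 8CA and fell in 4 of 4 with 8AA. ATF3, PPP1R15A and SESN2 also rose in 3 of 4 with 8CA, while ASNS fell in 4 of 4 with 8AA. DDIT3 and PPP1R15A were the genes that rose with 8AA, each in KG-1a at 24 h.

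The counts differed between lines and times. In MV4-11 at 8 h with 8CA, PPP1R15A rose and ASNS fell, where 4.58% of 12800 genes rose and 5.77% fell. Without one library, 576 to 774 genes of the whole table were called there instead of 1325, and 0 to 1 of the 10. The share of lower calls among them was 55.8%, and 38.3% when scaled by library size only. In MV4-11 at 24 h with 8CA, 7 of 10 rose, against 21.2% of all genes that rose, and the median log2 fold change of the 10 was 0.62, against 0.0022 over all genes. In KG-1a at 8 h with 8CA, 5 of 10 rose, against 0.7% of 12711 genes, with a median of 0.46 against -0.0047. In KG-1a at 24 h with 8CA, 9 of 10 rose, against 23.4% of all genes, with a median of 1.55 against 0.0065. The set of KG-1a at 8 h depended on single libraries as well. Without one of its 4 libraries, 28 to 37 genes of the whole table were called instead of 112. Of the 10 genes, 3 passed without untreated replicate B, 8CA replicate A or 8CA replicate B, and 5 without untreated replicate A.

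With 8AA the lower side was the fuller one. In MV4-11, 4 of 10 fell at 8 h, against 15.6% of all genes, and 5 of 10 fell at 24 h, against 15.3%, with medians of -0.24 and -0.34. In KG-1a, 5 of 10 fell at 8 h, against 18.0%, with a median of -0.36. In KG-1a at 24 h, 7 of 10 fell and 2 rose, against 26.6% and 25.4% of all genes, with a median of -0.46 against 0.013 over all genes. Without replicate A or B of the KG-1a 8AA libraries at 24 h, every log2 fold change kept its direction. The values were -0.85 or -0.60 for ATF4, -0.91 or -0.84 for ATF3, -0.52 or -0.39 for ATF5 and -0.61 or -0.36 for CEBPB. They were -0.10 or -0.11 for CEBPG, -0.93 or -0.79 for TRIB3, -0.58 or -0.34 for SESN2 and -0.90 or -0.62 for ASNS. DDIT3 and PPP1R15A follow below. With 1 library left, the spread of this group no longer enters the test.

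**Figure D1:**
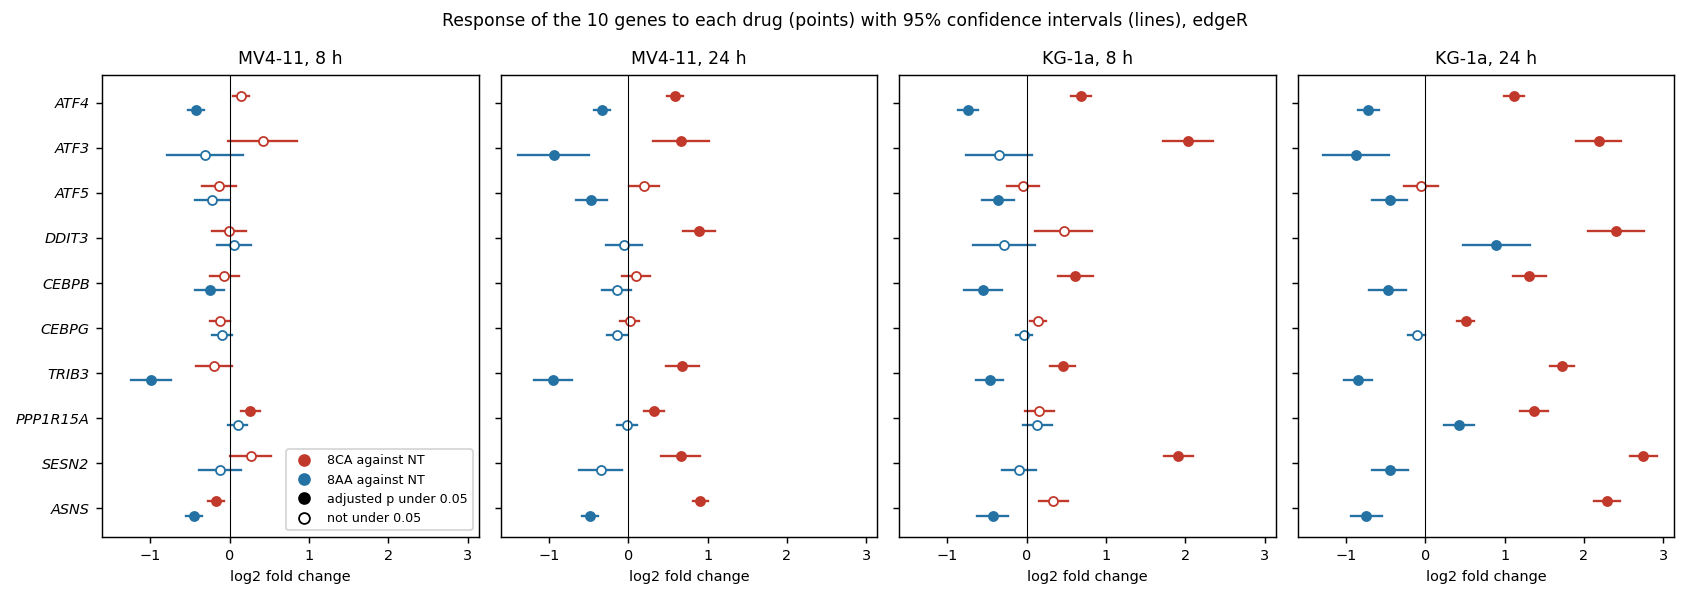
Log2 fold change of each of the 10 genes against untreated libraries of the same line and time (horizontal axis) with 8CA (red) and 8AA (blue), with 95% confidence intervals as lines and filled points where the edgeR adjusted p was under 0.05. At 24 h in KG-1a, 9 of the 8CA points lie to the right of 0, up to 2.75 for SESN2, and 8 of the 8AA points lie to the left, with DDIT3 and PPP1R15A to the right.

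ATF4, on chromosome 22 (39916569 to 39918691 on the plus strand in the deposited table), had the highest level per length of the 10 in every untreated group. In RPKM, the CPM divided by exon length in kilobases, its mean was 158 ± 2.06 (SD, n = 2) in MV4-11 and 157 ± 4.04 in KG-1a at 8 h, and its difference between untreated lines did not pass at either time (edgeR adjusted p = 0.784 at 8 h and 0.231 at 24 h). CEBPG, ASNS and ATF5 in MV4-11 and CEBPG in KG-1a came next in RPKM, and ATF3 was last in all 4 untreated groups, at 0.533 to 1.11 RPKM. Neighbours in this order whose libraries overlapped were ASNS and CEBPG in MV4-11 at both times, CEBPB and TRIB3 in KG-1a at 24 h, and TRIB3, ASNS, ATF5 and CEBPB in KG-1a at 8 h.

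In MV4-11, ATF4 stood at 333 and 339 CPM untreated, 368 and 379 CPM with 8CA and 250 and 260 CPM with 8AA at 8 h. At 24 h these values were 332 and 335 CPM, 491 and 527 CPM, and 258 and 281 CPM. In both sets the 3 treatments did not overlap. The fall with 8AA was 0.43 ± 0.05 (SE) on the log2 scale at 8 h and 0.33 ± 0.05 at 24 h (edgeR adjusted p = 1.18e-05 and 0.000126). With 8CA the value was 0.14 ± 0.05 at 8 h, which did not pass (edgeR adjusted p = 0.0688), and 0.59 ± 0.05 at 24 h, a 1.5-fold rise (edgeR adjusted p = 1.59e-07).

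In KG-1a at 8 h, ATF4 was 338 and 326 CPM untreated, 540 and 525 CPM with 8CA and 201 and 194 CPM with 8AA. By 24 h it was 347 and 355 CPM untreated, 769 and 752 CPM with 8CA and 231 and 195 CPM with 8AA. Again no libraries of different treatments overlapped at either time. ATF4 rose 1.60-fold and 2.17-fold with 8CA (log2 fold changes 0.68 ± 0.06 and 1.12 ± 0.06, edgeR adjusted p = 8.25e-06 and 1.33e-09) and fell 1.67-fold and 1.64-fold with 8AA (edgeR adjusted p = 3.83e-07 and 1.21e-07). GENCODE release 29 lists 4 pseudogenes of ATF4, whose reads may have been shared with it.

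**Figure D2:**
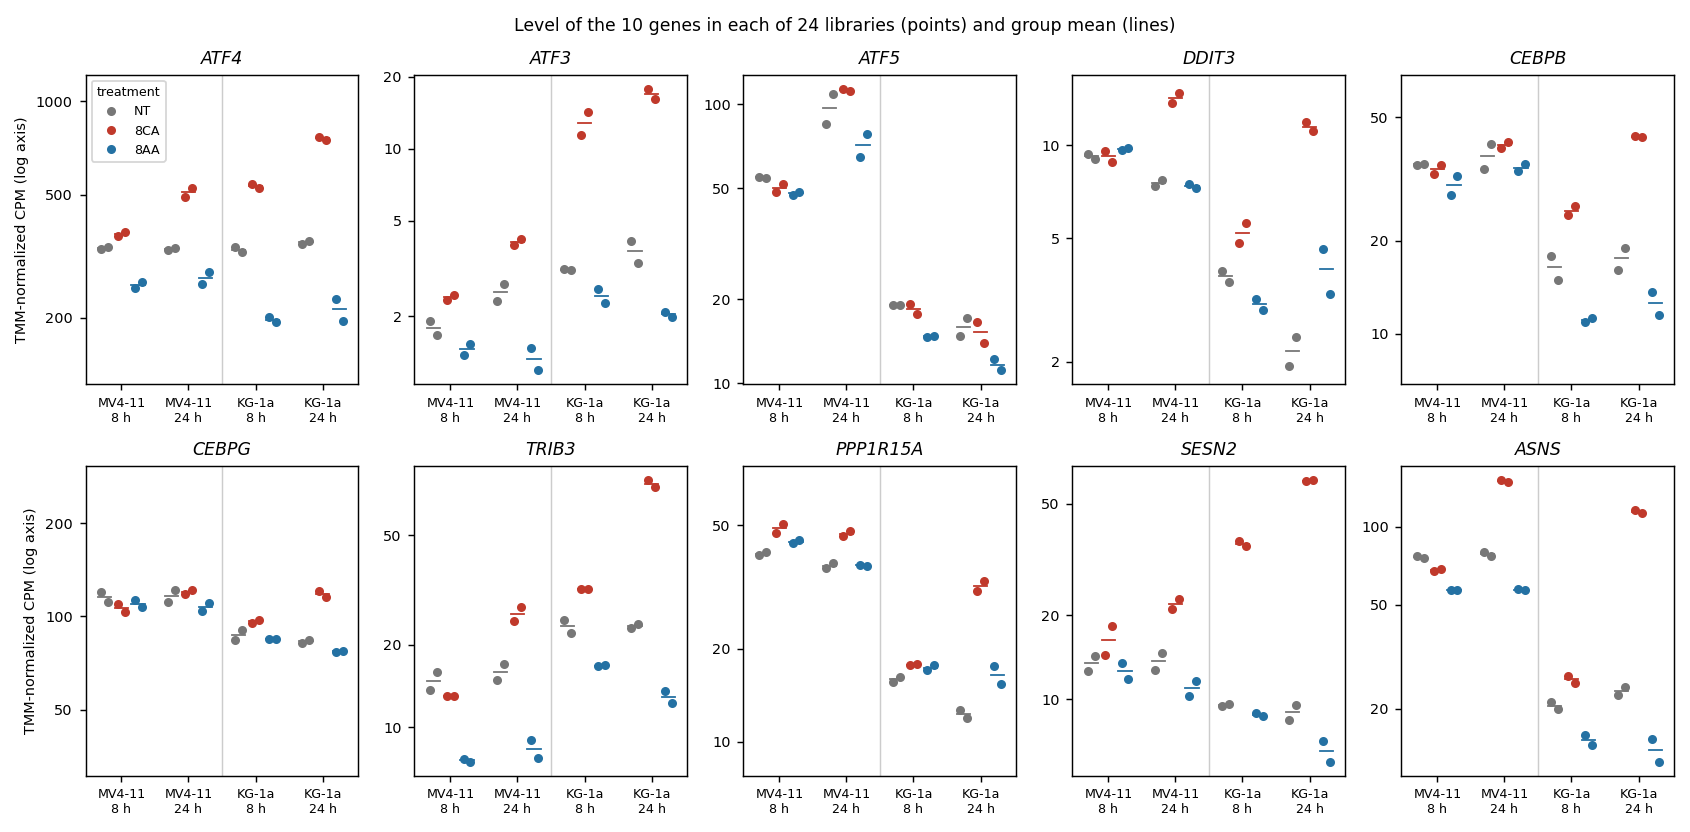
TMM-normalized CPM (log axis) of each gene in each of the 24 libraries, by line and time, with untreated libraries in grey, 8CA in red and 8AA in blue, and short lines at the group means. In KG-1a at 24 h the 8AA libraries lie below the 8CA libraries for all 10 genes, as they do for 33.1% of all genes. For ATF5 the 8CA libraries (16.6 and 13.9 CPM) overlap the untreated ones (14.8 and 17.1 CPM).

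ATF3 is an ATF4 target that can repress transcription, and it had 24 to 399 raw counts per library. In KG-1a it was 3.14 and 3.11 CPM untreated, 11.5 and 14.2 CPM with 8CA and 2.59 and 2.28 CPM with 8AA at 8 h. At the later time it was 4.11 and 3.34 CPM, 17.8 and 16.1 CPM, and 2.08 and 1.99 CPM. The 8CA libraries stood far above the others at both times, with log2 fold changes of 2.03 ± 0.15 and 2.18 ± 0.14 (edgeR adjusted p = 7.74e-07 and 7.63e-09). With 8AA the fall passed at 24 h (-0.87 ± 0.20, edgeR adjusted p = 0.0016) and not at 8 h (-0.35 ± 0.20, edgeR adjusted p = 0.186).

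In MV4-11 ATF3 lay between 1.19 CPM (8AA at 24 h) and 4.19 CPM (8CA at 24 h). At 24 h its levels were 2.32 and 2.74 CPM untreated, 3.95 and 4.19 CPM with 8CA and 1.47 and 1.19 CPM with 8AA, without overlap. The changes there were 0.66 ± 0.17 with 8CA (edgeR adjusted p = 0.00453, but 0.0807 by DESeq2) and -0.94 ± 0.21 with 8AA (edgeR adjusted p = 0.00364). At 8 h the levels were 1.91 and 1.66 CPM untreated, 2.34 and 2.45 CPM with 8CA and 1.38 and 1.53 CPM with 8AA. The order was the same, but neither drug's value passed (0.41 ± 0.20 for 8CA and -0.32 ± 0.23 for 8AA).

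ATF5, a further ATF4 target that acts in the mitochondrial stress response, had the widest gap between untreated lines at 24 h. Untreated MV4-11 held 55.0 and 54.3 CPM at 8 h and 85.2 and 109 CPM at 24 h, and untreated KG-1a 19.0 and 19.0 CPM and 14.8 and 17.1 CPM. The line difference was 2.87-fold at 8 h and 6.09-fold at 24 h (edgeR adjusted p = 2.68e-12 and 4.73e-17). In untreated MV4-11 the rise from 8 h to 24 h was 1.77-fold (edgeR adjusted p = 0.000106), where 3.38% of genes rose. ATF5 was also the gene that did not pass in any 8CA comparison. With 8CA it stood at 48.5 and 51.7 CPM at 8 h and 114 and 111 CPM at 24 h in MV4-11. In KG-1a the 8CA libraries held 19.2 and 17.6 CPM and 16.6 and 13.9 CPM. Its log2 fold changes there were -0.14 and 0.20 in MV4-11 and -0.04 and -0.06 in KG-1a, the last with a 95% interval of -0.27 to 0.16.

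With 8AA, ATF5 was 47.4 and 48.4 CPM at 8 h and 64.5 and 78.2 CPM at 24 h in MV4-11. In KG-1a it was 14.6 and 14.8 CPM and 12.2 and 11.1 CPM. All 8 values lie below the untreated libraries of their line and time, and the fall passed in MV4-11 at 24 h (-0.47 ± 0.09, edgeR adjusted p = 0.00155) and in KG-1a at 8 h and 24 h (-0.36 ± 0.10 and -0.45 ± 0.10, edgeR adjusted p = 0.00916 and 0.00199). The call at 8 h in KG-1a was lost without 8AA replicate A (edgeR adjusted p = 0.0571). ATF5 shares 1030 bases in the table's coordinates with NUP62 and IL4I1 on the other strand. NUP62, a nuclear pore gene, fell with 8AA in KG-1a by 0.29 and 0.30 on the log2 scale at 8 h and 24 h. In MV4-11 with 8AA it was -0.20 at 8 h, which passed, and -0.11 at 24 h, which did not. With 8CA at 24 h NUP62 fell in both lines (-0.26 in KG-1a and -0.37 in MV4-11), where ATF5 did not pass. Whether reads were counted by strand is not given in the sources used here, and sharing of reads was not tested.

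DDIT3, which encodes the pro-apoptotic factor CHOP, showed the largest 24 h change after SESN2 in KG-1a with 8CA. Untreated KG-1a libraries held 3.93 and 3.63 CPM at 8 h and 1.94 and 2.40 CPM at 24 h. With 8CA the values were 4.84 and 5.59 CPM at 8 h and 11.9 and 11.1 CPM at 24 h. With 8AA they were 3.19 and 2.94 CPM at 8 h and 4.64 and 3.31 CPM at 24 h. The 24 h libraries thus fell in the order untreated, 8AA, 8CA with no overlap. The rise with 8CA at 24 h was 5.31-fold (log2 2.41 ± 0.17, edgeR adjusted p = 2.3e-08), and the rise with 8AA was 1.86-fold (0.89 ± 0.20, edgeR adjusted p = 0.00135). Without replicate A of the 8AA libraries the latter log2 fold change was 0.61, and without replicate B it was 1.10. The untreated level was itself 1.73-fold lower at 24 h than at 8 h (edgeR adjusted p = 0.0416), where 1.97% of genes fell. The table places DDIT3 at chromosome 12, 57910371 to 57914300 on the minus strand, where 964 bases overlap MARS, a methionyl-tRNA synthetase gene on the plus strand. MARS fell in the same 24 h comparison of KG-1a and 8AA (-1.01 ± 0.05, edgeR adjusted p = 1.46e-09) and rose with 8CA (0.84 ± 0.05, edgeR adjusted p = 6.75e-09).

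In MV4-11, DDIT3 was 9.38 and 9.03 CPM untreated, 9.58 and 8.81 CPM with 8CA and 9.68 and 9.82 CPM with 8AA at 8 h. The 24 h libraries held 7.38 and 7.75 CPM untreated, 13.7 and 14.8 CPM with 8CA and 7.49 and 7.27 CPM with 8AA. Only the 8CA value at 24 h passed, with a 1.85-fold rise (0.89 ± 0.10, edgeR adjusted p = 3.48e-06). The 8AA libraries at 8 h lay above the others of that time, but their value did not pass (0.05 ± 0.10, edgeR adjusted p = 0.727). The 8AA value at 24 h was -0.05 ± 0.11, with a 95% interval of -0.28 to 0.17.

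CEBPB and CEBPG encode C/EBP proteins that pair with ATF4. In KG-1a CEBPB was 17.9 and 14.9 CPM untreated, 24.1 and 25.8 CPM with 8CA and 10.9 and 11.3 CPM with 8AA at 8 h. At 24 h it was 16.1 and 18.9 CPM, 43.3 and 43.3 CPM, and 13.6 and 11.5 CPM. The treatments did not overlap at either time. CEBPB rose with 8CA by 0.61 ± 0.10 and 1.31 ± 0.10 (edgeR adjusted p = 0.00843 and 4.17e-08) and fell with 8AA by 0.55 ± 0.11 and 0.47 ± 0.11 (edgeR adjusted p = 0.00149 and 0.00206). The rise at 8 h did not pass in 3 of the 4 sets that left out a library (highest edgeR adjusted p = 0.141).

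In MV4-11, CEBPB stayed between 28.1 and 41.7 CPM over the 12 libraries. It fell with 8AA at 8 h, from 35.1 and 35.4 CPM to 28.1 and 32.2 CPM (-0.25 ± 0.09, edgeR adjusted p = 0.0392), a call that 7 of 13 alternatives did not keep. The other values were -0.07 and 0.10 with 8CA and -0.15 with 8AA at 24 h. CEBPG lay between 103 and 122 CPM in MV4-11 and between 77.1 and 121 CPM in KG-1a. It passed in 1 of 8 comparisons, KG-1a with 8CA at 24 h, where 82.3 and 84.0 CPM became 121 and 115 CPM (0.51 ± 0.05, edgeR adjusted p = 8.95e-07). The other 7 values of CEBPG lay between -0.14 and 0.14.

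TRIB3 encodes a pseudokinase that binds ATF4 and DDIT3 proteins and limits their activity. In MV4-11 it was 13.7 and 15.9 CPM untreated, 13 and 13 CPM with 8CA and 7.68 and 7.50 CPM with 8AA at 8 h. By 24 h it was 14.8 and 17.0 CPM, 24.5 and 27.3 CPM, and 8.96 and 7.72 CPM. The 8AA libraries were the lowest at both times, with log2 fold changes of -0.99 ± 0.12 and -0.95 ± 0.11 (edgeR adjusted p = 1.96e-05 and 2.65e-05), and the 8CA libraries the highest at 24 h only (0.68 ± 0.10, edgeR adjusted p = 4.62e-05).

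In KG-1a, TRIB3 was 24.7 and 22 CPM untreated, 31.9 and 31.9 CPM with 8CA and 16.7 and 16.8 CPM with 8AA at 8 h. At the later time it was 23.1 and 23.7 CPM, 79.5 and 74.6 CPM, and 13.6 and 12.3 CPM. The groups did not overlap at either time. TRIB3 rose 1.37-fold and 3.30-fold with 8CA (edgeR adjusted p = 0.00686 and 4.75e-11) and fell 1.38-fold and 1.80-fold with 8AA (edgeR adjusted p = 0.000344 and 5.63e-07). The 8 h rise did not pass without untreated replicate B or without either 8CA library (highest edgeR adjusted p = 0.121).

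PPP1R15A encodes the phosphatase subunit that dephosphorylates eIF2 and so restores translation. In MV4-11 it was 40.2 and 40.9 CPM untreated, 47.3 and 50.7 CPM with 8CA and 43.7 and 44.9 CPM with 8AA at 8 h. The 24 h libraries held 36.4 and 37.8 CPM, 46.1 and 47.9 CPM, and 37.2 and 37.0 CPM. It rose with 8CA at both times, 1.2-fold and 1.25-fold (edgeR adjusted p = 0.0106 and 0.000377), although the 8 h call was lost in 3 of the 4 sets that left out a library. Neither 8AA value passed (0.10 ± 0.06 and -0.02 ± 0.06).

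In KG-1a, PPP1R15A was 15.6 and 16.3 CPM untreated, 17.7 and 17.8 CPM with 8CA and 17.1 and 17.6 CPM with 8AA at 8 h. At 24 h it was 12.7 and 11.9 CPM, 30.7 and 33.1 CPM, and 17.6 and 15.4 CPM. As for DDIT3, both drugs lay above the untreated libraries at 24 h and the untreated level was itself lower than at 8 h (-0.35 ± 0.09, edgeR adjusted p = 0.0416). The rises at 24 h were 2.59-fold with 8CA (edgeR adjusted p = 6.8e-09) and 1.34-fold with 8AA (edgeR adjusted p = 0.000956). Without replicate A or B of the 8AA group the latter log2 fold change was 0.32 or 0.51.

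SESN2 encodes a leucine-binding inhibitor of mTORC1 signalling and had the largest single response of the 10. In KG-1a it was 9.51 and 9.61 CPM untreated, 36.6 and 35.2 CPM with 8CA and 8.98 and 8.70 CPM with 8AA at 8 h. By 24 h it was 8.47 and 9.55 CPM, 60.2 and 60.7 CPM, and 7.12 and 6.0 CPM. The 8CA libraries stood above all others, with rises of 3.76-fold and 6.73-fold (log2 1.91 ± 0.08 and 2.75 ± 0.08, edgeR adjusted p = 2e-09 and 1.61e-12). With 8AA the fall passed at 24 h (-0.45 ± 0.11, edgeR adjusted p = 0.00269) and not at 8 h (-0.10 ± 0.10, edgeR adjusted p = 0.461).

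In MV4-11 SESN2 moved less. It was 12.7 and 14.3 CPM untreated, 14.4 and 18.3 CPM with 8CA and 13.5 and 11.9 CPM with 8AA at 8 h, and neither drug's value passed. At the later time it was 12.8 and 14.6 CPM untreated, 21.1 and 22.8 CPM with 8CA and 10.3 and 11.7 CPM with 8AA. The rise with 8CA at 24 h was 1.58-fold (edgeR adjusted p = 0.000277), and the 8AA value was -0.34 ± 0.13 (edgeR adjusted p = 0.054).

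ASNS makes asparagine from aspartate and glutamine and is among the best known amino acid targets of ATF4. In MV4-11 it was 76.8 and 75.6 CPM untreated, 67.8 and 68.5 CPM with 8CA and 57.3 and 56.9 CPM with 8AA at 8 h. The 24 h libraries held 80.1 and 77.3 CPM, 151 and 148 CPM, and 57.6 and 56.9 CPM. With 8CA the ASNS libraries lay below untreated at 8 h (-0.17 ± 0.05, edgeR adjusted p = 0.0308) and above at 24 h (0.91 ± 0.04, edgeR adjusted p = 1.59e-09). The 8 h call was lost in 10 of 13 alternatives (highest edgeR adjusted p = 0.137). The falls with 8AA were 0.45 ± 0.05 and 0.48 ± 0.05 on the log2 scale (edgeR adjusted p = 7.99e-06 and 5.71e-06).

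In KG-1a, ASNS was 21.2 and 19.9 CPM untreated, 26.6 and 25.1 CPM with 8CA and 15.8 and 14.5 CPM with 8AA at 8 h. At 24 h it was 22.6 and 24.2 CPM, 115 and 113 CPM, and 15.2 and 12.5 CPM. The treatments did not overlap. The 8CA value was 0.34 ± 0.09 at 8 h (edgeR adjusted p = 0.0804) and 2.29 ± 0.08 at 24 h, a 4.88-fold rise (edgeR adjusted p = 5.32e-12). The falls with 8AA were 1.35-fold and 1.67-fold (edgeR adjusted p = 0.00196 and 5.93e-06). GENCODE release 29 lists 4 pseudogenes of ASNS.

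The drugs share a dose and times, so 8AA was set directly against 8CA within each line and time, in 4 pairs of groups and 40 tests for the 10 genes. In all 32 tests that passed, the gene was lower with 8AA. In MV4-11 at 8 h these were ATF4, ATF3, TRIB3 and ASNS (4 of 10, against 3.7% of all genes lower), and at 24 h every gene but CEBPG (9 of 10, against 9.48%). The call of ATF3 at 8 h was lost without any one of the 4 drug libraries (highest edgeR adjusted p = 0.199), as was that of CEBPB at 24 h (highest edgeR adjusted p = 0.194). In KG-1a at 8 h they were every gene but PPP1R15A (9 of 10, against 15.8%), and at 24 h all 10 (against 21.7%). The whole-table counts behind these shares also moved with single libraries, from 2716 to 1167 in MV4-11 at 24 h without 8CA replicate A, to 1392 without 8AA replicate B and to 1768 without 8AA replicate A. At 8 h, without one drug library, they went from 853 to between 365 and 468 in MV4-11 and from 3868 to between 2237 and 2386 in KG-1a. At 8 h CEBPG was lost without any one of the 4 drug libraries (highest edgeR adjusted p = 0.0995), and ATF5 without 8CA replicate A or either 8AA library (highest edgeR adjusted p = 0.176). The libraries of the drugs did not overlap, with 8AA lower, for 8 of 10 genes in MV4-11 at 8 h (against 20.8% of all genes) and for 10 of 10 in the other 3 pairs (against 28.2% in MV4-11 at 24 h, and 36.1% and 33.1% in KG-1a at 8 h and 24 h).

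The widest gap between the analogs was in KG-1a at 24 h, where SESN2 was 9.16-fold, ATF3 8.32-fold, ASNS 8.18-fold and TRIB3 5.95-fold lower with 8AA than with 8CA. ATF4 itself was 3.57-fold lower there (log2 -1.83 ± 0.06, edgeR adjusted p = 1.81e-12), and ATF5 had the smallest gap (-0.39 ± 0.10, edgeR adjusted p = 0.00637, lost without 8CA replicate A at 0.121). The median of the 10 was -1.81, against 0.0025 over all genes. The pairs that did not pass were ATF5, DDIT3, CEBPB, CEBPG, PPP1R15A and SESN2 in MV4-11 at 8 h, CEBPG in MV4-11 at 24 h and PPP1R15A in KG-1a at 8 h. For PPP1R15A in KG-1a at 8 h the difference was -0.02, with a 95% interval of -0.20 to 0.16, and for DDIT3 in MV4-11 at 8 h it was 0.06, with an interval of -0.15 to 0.27. For SESN2 in MV4-11 at 8 h the interval ran from -0.65 to -0.13 (edgeR adjusted p = 0.0731).

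**Figure D3:**
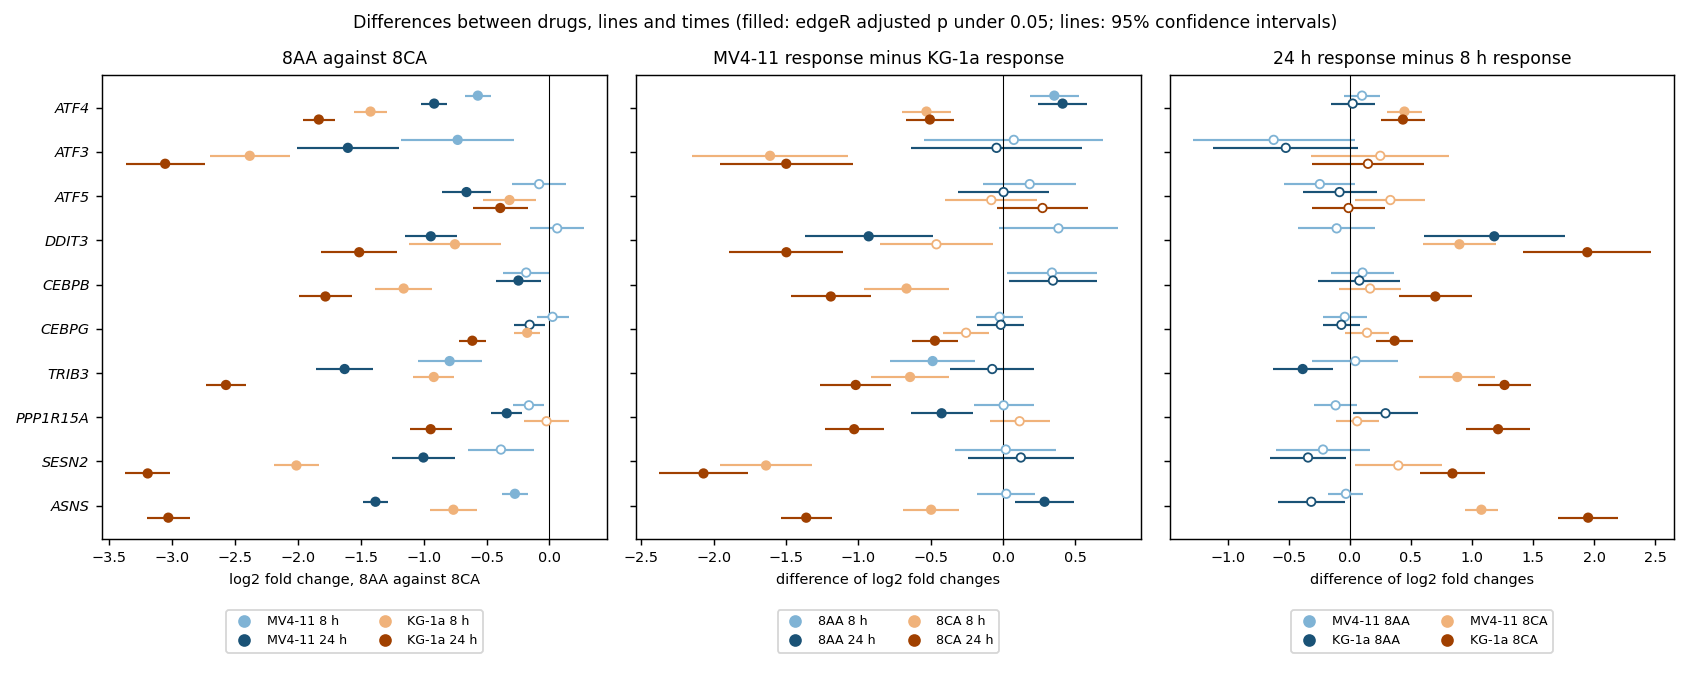
Log2 differences of the 10 genes between drugs (left, 8AA against 8CA), between lines (middle, MV4-11 response minus KG-1a response) and between times (right, 24 h response minus 8 h response), with 95% confidence intervals and filled points where the edgeR adjusted p was under 0.05. In the left panel all filled points lie below 0, and in the middle panel 9 of the 10 points for 8CA at 24 h do, down to -2.07 for SESN2.

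Responses to 8CA grew with time. The 24 h response exceeded the 8 h response for ASNS, DDIT3, TRIB3 and ATF4 in MV4-11 (4 of 10, against 6.48% of all genes) and for 8 of 10 in KG-1a (against 11.2%), all but ATF3 and ATF5. The gains were largest for ASNS (1.08 ± 0.07 in MV4-11 and 1.95 ± 0.12 in KG-1a on the log2 scale) and DDIT3 (0.90 ± 0.14 and 1.94 ± 0.25). ATF3 in KG-1a had its rise by 8 h, and the difference between times was 0.15, with a 95% interval of -0.31 to 0.61. For 8AA fewer responses differed between times, over all genes too. The calls were 593 against 2088 with 8CA in MV4-11, and 2330 against 3036 in KG-1a. The counts among the 10 lay near the shares of all genes. In MV4-11 0 of 10 passed by edgeR or by DESeq2, and 0 at an unadjusted p under 0.05, where 4.63% of all genes passed. In KG-1a 7.64% of all genes had a higher and 10.7% a lower response at 24 h, and of the 10 these were DDIT3, higher (1.18 ± 0.27, edgeR adjusted p = 0.0068) and TRIB3, lower (-0.39 ± 0.12, edgeR adjusted p = 0.0295), the latter lost in 9 of 16 alternatives. Of the calls over all genes 58.3% were lower there, but 41.7% when scaled by library size only and 39.2% by upper quartile, and the count went from 2330 to 3981 without 8AA replicate A at 24 h and to 1358 without 8AA replicate A at 8 h, with 1504 and 1538 calls without untreated replicates B and A at 24 h.

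Responses to 8CA were smaller in MV4-11 than in KG-1a. At 8 h the difference passed for ATF3, SESN2, CEBPB, TRIB3, ATF4 and ASNS (6 of 10, against 0.726% of all genes with a lower response in MV4-11), and at 24 h for 9 of 10 (against 5.44%). SESN2 differed most, by -1.64 ± 0.15 at 8 h and -2.07 ± 0.15 at 24 h (edgeR adjusted p = 8.01e-07 and 1.18e-09). ATF5 was the exception at 24 h (0.27, 95% interval -0.04 to 0.59). At 8 h, 3 of 10 passed instead of 6 without KG-1a untreated replicate B (CEBPB, TRIB3 and ASNS were lost) and 4 without MV4-11 untreated replicate B.

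For 8AA the lines differed in fewer of the 10 genes than for 8CA. Over all genes they differed in more (1559 calls against 162 at 8 h, and 3130 against 1574 at 24 h). At 8 h 2 of 10 passed, where the response of 7.49% of all genes was higher and that of 3.6% lower in MV4-11. ATF4 fell less in MV4-11 (0.35 ± 0.08, edgeR adjusted p = 0.00577) and TRIB3 fell more (-0.49 ± 0.14, edgeR adjusted p = 0.0261, lost in 6 of the sets that left out a library). At 24 h 4 of 10 passed, where 13.8% of all genes were higher and 8.51% lower in this difference. These were ATF4 (0.41 ± 0.08, edgeR adjusted p = 0.000574), ASNS (0.29 ± 0.10, edgeR adjusted p = 0.0357), PPP1R15A (-0.42 ± 0.10, edgeR adjusted p = 0.00384) and DDIT3 (-0.93 ± 0.21, edgeR adjusted p = 0.00241). The DDIT3 call was lost without KG-1a 8AA replicate A (-0.65, edgeR adjusted p = 0.0517), and that of ASNS in 12 of 16 alternatives.

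Before treatment the lines differed in 9 of the 10 genes at each time, all but ATF4. Over all genes, 40.1% were higher and 42.1% lower in MV4-11 at 8 h, and 41.0% each way at 24 h. ATF3 and TRIB3 were lower in MV4-11 (1.75-fold and 1.57-fold at 8 h) and the other 7 were higher, led by ASNS (3.71-fold) and ATF5 (2.87-fold) at 8 h. SESN2, the gene with the largest rise in KG-1a, was 1.41-fold higher in untreated MV4-11 at 8 h (log2 0.50 ± 0.12, edgeR adjusted p = 0.000581).

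The eIF2 machinery upstream of ATF4 (17 genes, all tested) had calls on both sides with 8CA at 24 h. In MV4-11, 5 rose and 5 fell, against 21.2% and 22.7% of all genes, and in KG-1a 5 rose and 8 fell, against 23.4% and 24.0%. With 8AA at 24 h, 2 rose and 3 fell in MV4-11, against 13.9% and 15.3% of all genes, and 1 rose and 12 fell in KG-1a, against 25.4% and 26.6%, with medians of -0.05 and -0.27. EIF2S1, which encodes the alpha subunit of eIF2, fell in 7 of the 8 comparisons, by 0.20 to 0.53 on the log2 scale, and was -0.05 in KG-1a with 8CA at 8 h. EIF2B3, a subunit of the eIF2 exchange factor, fell at 24 h by 0.31 and 0.66 with 8CA and by 0.24 and 0.64 with 8AA. OMA1, a mitochondrial protease that signals to the eIF2 kinase HRI, rose at 24 h in all 4 comparisons (0.26 to 0.38) and with 8AA at 8 h in MV4-11 (0.28), but fell in KG-1a with 8AA at 8 h (-0.44). KIAA0141 (DELE1), its substrate, also rose at 24 h in all but KG-1a with 8AA (0.10).

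Amino acid targets of ATF4 (28 genes, all tested, ASNS not among them) moved mostly in the direction of ATF4 at 24 h. With 8CA at 24 h, 27 rose and 1 fell in KG-1a (median log2 fold change 0.94), where 23.4% of all genes rose, and 14 rose and 1 fell in MV4-11 (0.13), where 21.2% rose. With 8AA at 24 h, 26 fell in KG-1a (median -0.67), against 26.6% of all genes, and 23 fell in MV4-11 (-0.31), against 15.3%. At 8 h, 8CA split the lines, as 10 rose in KG-1a, against 0.7% of all genes, and 12 fell in MV4-11, against 5.77%. PSAT1, of serine synthesis, was 2.07 with 8CA and -1.50 with 8AA at 24 h in KG-1a. SLC7A11, the cystine transporter, was 2.38 and -0.85 there and 1.43 and -1.06 in MV4-11. SLC3A2, its heavy chain, was 1.77 and -0.24 in KG-1a, and GARS, which charges the glycine tRNA, 1.11 and -1.08. All 10 values of the last 4 sentences passed the test.

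Stress targets of ATF4 and DDIT3 (22 genes, of which the filter on low counts left 19 in MV4-11 and 17 in KG-1a) included 15 that rose and 1 that fell with 8CA at 24 h in KG-1a, against 23.4% and 24.0% of all genes, and 11 that rose and 1 that fell in MV4-11, against 21.2% and 22.7%. With 8AA at 24 h, 4 rose and 9 fell in KG-1a, against 25.4% and 26.6%, and 1 rose and 9 fell in MV4-11, against 13.9% and 15.3%. CHAC1, which degrades glutathione, had the widest range. In KG-1a at 24 h it was 3.48 and 3.50 CPM untreated, 54.5 and 51.1 CPM with 8CA and 0.440 and 0.567 CPM with 8AA, with log2 fold changes of 3.92 and -2.79. VEGFA was 1.87 and -1.42 in the same comparisons and JDP2, a partner of ATF3 and CHOP, 1.60 and -0.46. KLHL24, a ubiquitin ligase adaptor, rose instead with both drugs, by 1.41 with 8CA and 1.79 with 8AA at 24 h in KG-1a, and passed in all 8 comparisons.

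**Figure D4:**
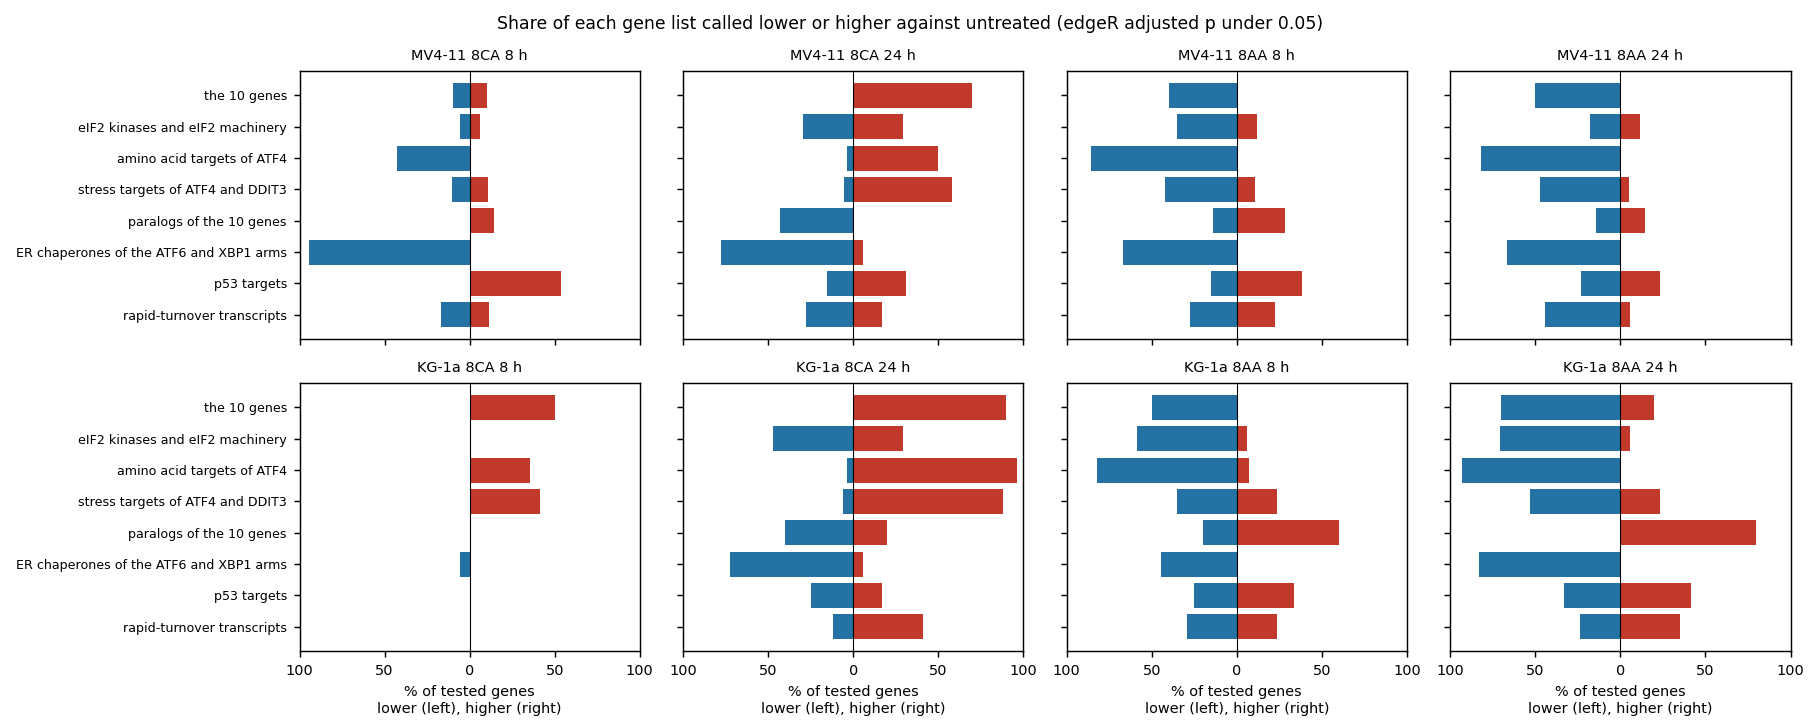
Percentage of the tested genes of each list that were called higher (red, right) or lower (blue, left) against untreated libraries, in 8 panels by line, drug and time. With 8CA at 24 h, 14 of 28 amino acid targets of ATF4 were higher in MV4-11 and 27 in KG-1a. With 8AA at 24 h their bars lie on the left. In each 24 h panel 12 to 15 of the 18 genes of the ER chaperone list were lower, with 1 higher in each 8CA panel.

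The list of endoplasmic reticulum (ER) chaperones (18 genes) covers ATF6 and XBP1, the other arms of the unfolded protein response. Besides chaperones it holds ATF6 and XBP1 themselves, SEL1L and EDEM1, so not all 18 are chaperones. Most of the 18 genes were lower with both drugs at 24 h. With 8CA, 14 fell and 1 rose in MV4-11 and 13 fell and 1 rose in KG-1a (medians -0.64 and -0.72), against 22.7% and 24.0% of all genes that fell. With 8AA, 12 and 15 fell (-0.23 and -0.55), against 15.3% and 26.6%. With 8CA at 8 h, 17 of 18 fell in MV4-11, where 5.77% of all genes did, and 1 of 18 in KG-1a, where 0.181% did. HSPA5 (BiP), the main chaperone of the list, was -1.60 with 8CA and -0.93 with 8AA in KG-1a and -0.91 and -0.39 in MV4-11. MANF was -1.45 and -0.83 in KG-1a, PDIA4 -1.25 and -0.84, and HSP90B1 -1.14 and -0.75. Each of these values passed the test. Set directly against 8CA, 8AA left 11 of the 18 genes higher in MV4-11 at 24 h, against 11.7% of all genes, and 10 higher and 2 lower in KG-1a, against 20.3% and 21.7%.

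Paralogs of the 10 genes (7, of which 5 were tested in KG-1a) gave other values. SESN3, a paralog of SESN2, rose with 8AA in all 4 comparisons (0.68 to 1.02) and was between -0.08 and 0.08 with 8CA. SESN1 was 0.39 with 8AA and 0.05 with 8CA in KG-1a at 24 h. TRIB1, a paralog of TRIB3, fell with 8CA at 24 h (-0.72 in MV4-11 and -0.58 in KG-1a) and, with 8AA at 24 h, fell in MV4-11 (-0.69) and rose in KG-1a (0.86). CEBPA fell with 8CA at 24 h in both lines (-0.34 and -0.22).

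Among p53 targets (13 genes, 12 tested in KG-1a), 4 rose and 2 fell with 8CA at 24 h in MV4-11 and 2 rose and 3 fell in KG-1a, and with 8AA 3 rose and 3 fell and 5 rose and 4 fell. The shares of all genes were 21.2% and 22.7% with 8CA in MV4-11, 23.4% and 24.0% in KG-1a, 13.9% and 15.3% with 8AA in MV4-11 and 25.4% and 26.6% in KG-1a, and the same shares apply to the next list. TP53INP1 rose by 2.62 on the log2 scale with 8AA in KG-1a at 24 h and was 0.02 with 8CA, while TP53I3 rose with both drugs in both lines at 24 h (0.58 to 0.63). AEN was -0.99 and BAX -0.47 in KG-1a with 8AA. Of the 13 p53 targets, 7 rose and 0 fell with 8CA at 8 h in MV4-11 (median 0.26). There 4.58% of all genes rose and 5.77% fell. In KG-1a 0 of 12 were called with 8CA at 8 h, against 0.7% and 0.181%. With 8AA at 8 h, 5 rose and 2 fell in MV4-11, where 3742 of 12800 genes were called, 53.4% of them lower. In KG-1a 4 rose and 3 fell, where 4415 of 12711 genes were called, 51.9% of them lower. Among transcripts of rapid turnover (18 genes, 17 tested in KG-1a), 7 rose and 2 fell with 8CA and 6 rose and 4 fell with 8AA in KG-1a at 24 h, and 3 rose and 5 fell and 1 rose and 8 fell in MV4-11. DUSP2 fell with both drugs at 24 h in KG-1a (-0.44 and -1.02) and MV4-11 (-0.50 and -0.36), and BTG2 rose in KG-1a (0.77 and 1.39). EGR1 fell in MV4-11 at 24 h (-0.94 and -0.97), and JUNB was -0.11 with 8CA and -0.46 with 8AA in KG-1a.

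The genes whose log2 CPM, centred within each line, was most correlated with ASNS over the 24 libraries were PCK2 (Pearson r = 0.994), ALDH1L2 (0.967), AARS (0.966), CARS (0.965) and EIF1 (0.963), among 9886 genes tested in both lines. PCK2, a mitochondrial enzyme that makes phosphoenolpyruvate, was 1.78 with 8CA and -0.50 with 8AA at 24 h in KG-1a. ALDH1L2, of mitochondrial folate metabolism, was 2.57 and -1.81. Of the other 9 genes described here, TRIB3 was closest to ASNS (0.944) and ATF5 the farthest (0.352). With DDIT3 the closest were ANKRD11 (0.931), NMI (0.914), SNHG7 (0.910), ATXN2L (0.883) and PCBP2 (0.880), and of the 10 genes PPP1R15A (0.911), while ATF4 was at 0.731. SNHG7 rose in KG-1a at 24 h with both drugs (1.10 and 0.47), as DDIT3 did. These correlations share libraries, scaling and the 12 group means, and are given as a description.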

How the data were processed

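RNA sequencing counts were analysed from 24 libraries of MV4-11 and KG-1a cells. Per the labels, RNA was extracted with a QIAGEN kit. The authors deposited raw counts of reads per gene, not normalized, with symbol, position and exon length. The submitters' processing notes name Trimmomatic, STAR 2.6.0, HTSeq 0.11.1 and edgeR and the builds hg19 and hg38, with no role or order. Neither the annotation nor the strand setting is stated in the labels or methods. The start or end of 169 of 21956 shared genes matched RefSeq GRCh38, so the table's coordinates were not mixed with the GRCh38.p14 promoters. With unknown strand use, reads of overlapping genes, paralogs and pseudogenes may have been shared.

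Genes were filtered with filterByExpr (minimum count 10), scaled by TMM and tested with edgeR 4.0.16 in R 4.3.3 (quasi-likelihood test, 1 coefficient per group, no covariate) over the 12 libraries of a line (12800 genes in MV4-11 and 12711 in KG-1a), or all 24 (14055 genes) for differences between lines. Adjustment was by Benjamini-Hochberg over all genes tested, with a threshold of 0.05. SE is the absolute log2 fold change divided by the square root of F, and 95% intervals use the moderated degrees of freedom. Levels are CPM scaled over 24 libraries, and RPKM divides them by exon length. All 10 genes passed the filter in both lines. Totals of 18633963 to 24520078 counts and 2 libraries per group set the precision.

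The 10 genes and all gene lists were chosen with earlier results of these data known. From each further list, up to 4 genes were named by the number of responses called and then by mean absolute log2 fold change, with the 5 genes most correlated with ASNS and with DDIT3 (mean log2 CPM of at least 1 in each line) and genes that overlap one of the 10. Before use, the fits were checked on simulated counts with 200 changed genes. The alternatives were 3 other scalings, no filter, a filter of 10 counts per library throughout, fits of more or fewer libraries, the replicate letter as a block, leaving out each library, DESeq2 1.42.0, and a log2 fold change of at least 1. A further marker is not reported here.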

Additional observations from a re-analysis of the deposited data

Results flagged for a closer look

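The responses of 35 tests differed between times or lines by a test of the difference itself (edgeR, interaction contrasts, adjusted over all genes). For 8CA, the 24 h response minus the 8 h response in KG-1a was 1.95 for ASNS, 1.94 for DDIT3, 1.27 for TRIB3, 1.21 for PPP1R15A, 0.84 for SESN2, 0.70 for CEBPB, 0.43 for ATF4 and 0.37 for CEBPG, on the log2 scale. In MV4-11 it was 1.08 for ASNS, 0.90 for DDIT3, 0.88 for TRIB3 and 0.45 for ATF4. For 8AA in KG-1a it was 1.18 for DDIT3 and -0.39 for TRIB3.

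The 8CA response in MV4-11 minus that in KG-1a at 24 h was -2.07 for SESN2, -1.50 for ATF3, -1.50 for DDIT3, -1.36 for ASNS, -1.19 for CEBPB, -1.03 for PPP1R15A, -1.02 for TRIB3, -0.51 for ATF4 and -0.47 for CEBPG. At 8 h it was -1.64 for SESN2, -1.61 for ATF3, -0.67 for CEBPB, -0.64 for TRIB3, -0.53 for ATF4 and -0.50 for ASNS. For 8AA at 24 h the difference was -0.93 for DDIT3, -0.42 for PPP1R15A, 0.41 for ATF4 and 0.29 for ASNS, and at 8 h it was 0.35 for ATF4 and -0.49 for TRIB3.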

How the results depend on the processing

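Of 113 values called among 200 responses and differences of the 10 genes, 94 were called under every scaling, filter, set of libraries and tool and without each library, and no called value changed sign. In 94 refits a value changed sign that passed in neither fit. With a log2 fold change of at least 1 required as well, the called genes went from 2 to 0 in MV4-11 with 8CA at 8 h, 7 to 0 at 24 h, 4 to 0 and 5 to 0 with 8AA, 5 to 2 with 8CA at 8 h in KG-1a, 5 to 0 and 9 to 0 for its 8AA responses, 4 to 0 and 9 to 4 for 8AA against 8CA in MV4-11, 9 to 4 in KG-1a at 8 h, 4 to 1, 8 to 4 and 2 to 1 for times, and 6 to 2, 2 to 0 and 4 to 0 for lines. MV4-11 with 8CA at 8 h gave 1 by DESeq2, in 1 fit of all 24 libraries and in a fit of its 6 libraries, and the KG-1a time difference with 8AA gave 1 by library size, upper quartile or DESeq2. Leaving out 1 library gave 0 to 1, 7 to 9, 3 to 4 and 5 to 6 genes for the MV4-11 responses in that order, 3 to 5, 9 to 9, 4 to 5 and 9 to 9 for KG-1a, 3 to 4, 8 to 8, 7 to 8 and 9 to 10 for 8AA against 8CA, 4 to 5, 0 to 0, 8 to 8 and 1 to 4 for times, and 3 to 6, 9 to 10, 1 to 2 and 3 to 4 for lines. A lone library was then assumed to vary like the other groups. Over all genes, the count went from 112 in KG-1a with 8CA at 8 h to 272 without the filter, 184 with all 24 libraries and 503 with its 6 libraries, from 1325 in MV4-11 with 8CA at 8 h to 612 with its 6 libraries, from 853 for 8AA against 8CA in MV4-11 at 8 h to 556 by DESeq2 and 347 with 6 libraries, and, without the filter, from 593 for the MV4-11 8AA times to 952 and from 162 for the lines with 8CA at 8 h to 246. Leaving out 1 library moved the count by over 1.5 times in 14 of 20 comparisons, most as a ratio for the MV4-11 8AA times, to 136 without untreated replicate B at 24 h. The share of lower calls moved by over 10 percentage points in 10 of 20 comparisons by library size, at most from 55.8% to 38.3% in MV4-11 with 8CA at 8 h, and in 8 of 20 by upper quartile, at most from 58.3% to 39.2% for the KG-1a 8AA times, and no scaling moved the median of all genes by more than 0.0945.

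No label ties the letters A and B to a culture or day. Correlations of deviations between same-lettered libraries ran from -0.117 to 0.161 and passed 0.1 in 6 of 15 pairs of groups in MV4-11 and 2 of 15 in KG-1a, and all 3 pairs of MV4-11 groups at 8 h passed it (0.132 to 0.159). With the replicate block, 8 more values of the 200 were called and 0 lost, and the counts of called genes were 3, 8, 5 and 6 for the MV4-11 responses and 6, 9, 5 and 9 for KG-1a. Over all genes the block gave 1976 calls instead of 1325 in MV4-11 with 8CA at 8 h, 205 calls instead of 112 in KG-1a with 8CA at 8 h, 1369 instead of 853 for 8AA against 8CA in MV4-11 at 8 h, and 1123 instead of 593 for the MV4-11 8AA times.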
